A study of Mus musculus with 54 samples.

Results

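The proteasome genes followed here are 43 gene symbols, measured by 49 of the 29922 probes on a mouse oligonucleotide array. They were taken by name: every annotated symbol of the families Psma to Psmg followed by a number, with the immunoproteasome subunits Psmb8, Psmb9 and Psmb10 left out, and the ubiquitin receptor Adrm1 added. Of the 43 symbols, 42 are proteasome genes. Psmc3ip fits the naming pattern but encodes a partner protein in meiotic recombination. It is included in the counts, shares and medians below, and its own values are described separately. Of the 41 genes tested, 40 are proteasome genes. Psma5, Psmb3, Psmb11, Psme2b and Psmg4 were not analysed here.

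The cells were 3T3-L1, an established mouse line of preadipocytes, cells that can be made to differentiate into adipocytes. The untreated arm is described as undergoing normal differentiation, the DMSO arm received 0.5% DMSO, the vehicle, and the third arm received 2 µM prieurianin, a plant limonoid. RNA from each arm was taken at 18 times: at 0 h, at 0.25, 0.5, 1, 2 and 3 h, then at 5, 9, 12 and 15 h, at 24, 36 and 48 h, and last at 96, 144, 192, 240 and 288 h, with 1 single-colour array per arm and time and 54 arrays in all. The labels say neither whether each time was a separate culture nor when the treated arms received the differentiation stimulus. No DMSO content is recorded for the prieurianin arm, so DMSO is taken here as its vehicle without knowing that the amounts match. The comparisons ask how the DMSO arm differed from untreated cells, how the prieurianin arm differed from the DMSO arm, and how the genes moved over the course.

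The proteasome is the protease that degrades ubiquitin-tagged proteins in the cytosol and nucleus. Its 20S core is a barrel of alpha rings, which gate the entrance, and beta rings, which carry the catalytic sites. The 19S cap has a base, in which a ring of ATPases unfolds the substrate and pulls it in, and a lid, in which Psmd14 removes the ubiquitin chain. Other caps, such as the 11S activator built from Psme1 and Psme2, open the core without ATP, and dedicated chaperones (Psmg1 to Psmg3 for the core, Psmd5, Psmd9 and Psmd10 for the base) help to assemble the particle. When proteasomes fall short, the transcription factor Nfe2l1 (NRF1) raises the genes of the subunits together through antioxidant response elements in their promoters, and CCAAT boxes, bound by NF-Y, are common in promoters of this kind.

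Promoter sequence was read for 35 of the 43 genes, in 38 promoters, from RefSeq's GRCm38.p6 table. In the 250 bases before the transcription start, both strands were searched for the core of the antioxidant response element, TGACNNNGC, and for the CCAAT box, CCAAT. The element's core was found in 6 of the 38 promoters (15.8%), against 10.2% of all 32851 promoters in the table, and CCAAT in 13 (34.2%), against 33.8% of all. Such a match is a string of letters, not a shown binding site. The stretches below end at the last base before the start and are written 5′ to 3′ on the gene's strand, with matches in capitals. Psmb5, Psmb6 and Psmd9 are shown because the core lies within their last 60 bases, and Adrm1 because it holds both motifs. Psma1 is shown for its 2 CCAAT boxes in opposite orientation. Psma6 and Psmd10, which are not shown, also hold CCAAT in both orientations. Psmg1, Psmg3 and Psmd2 are shown because results below turn on them.
Psmb5, chr14:54617996-54618055, - strand: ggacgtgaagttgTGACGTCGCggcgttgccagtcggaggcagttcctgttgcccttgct
Psmb6, chr11:70525297-70525356, + strand: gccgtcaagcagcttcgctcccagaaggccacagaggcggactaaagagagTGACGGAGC
Psmd9, chr5:123228130-123228189, + strand: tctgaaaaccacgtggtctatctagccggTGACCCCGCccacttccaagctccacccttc
Adrm1, chr2:180171418-180171587, + strand: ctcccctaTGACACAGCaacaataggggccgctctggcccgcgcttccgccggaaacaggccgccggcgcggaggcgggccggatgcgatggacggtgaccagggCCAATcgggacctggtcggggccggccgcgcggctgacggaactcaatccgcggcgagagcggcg
Psma1, chr7:114276117-114276246, - strand: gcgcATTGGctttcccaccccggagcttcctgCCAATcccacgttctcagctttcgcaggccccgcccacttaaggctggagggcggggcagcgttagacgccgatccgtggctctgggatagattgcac
Psmg1, chr16:95990961-95991060, - strand: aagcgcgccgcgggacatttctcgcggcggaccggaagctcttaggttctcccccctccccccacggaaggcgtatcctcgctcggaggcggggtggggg
Psmg3, chr5:139826895-139826994, - strand: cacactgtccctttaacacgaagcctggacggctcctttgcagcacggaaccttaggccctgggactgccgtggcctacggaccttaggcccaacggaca
Psmd2, chr16:20651552-20651651, + strand: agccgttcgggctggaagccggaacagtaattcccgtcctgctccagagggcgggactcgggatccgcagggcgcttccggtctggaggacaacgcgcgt
In Psmb5 the core lies at positions -47 to -39, counting the last base before the start as -1, in Psmd9 at -31 to -23 and in Psmb6 at -9 to -1, next to the start. Neither string occurs in the stretches of Psmg1, Psmg3 and Psmd2.

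All levels below are log2(intensity + 16) after quantile normalisation between arrays, and all differences are on that scale, which understates changes of dim probes. Levels of different probes are not set against each other. Of the 43 genes, 41 passed the filter on dim genes and were tested. Psmc4, an ATPase of the base, and Psma8, the testis form of an alpha subunit, did not, with means of 4.11 and 4.92. Most of the genes were bright and steady: mean levels of the tested genes ran from 7.41 to 15.46 with a median of 13.42, and 1 single value (Psmb1, on 1 array) was saturated. The median SD over the 54 arrays was 0.24 for these genes, against 0.36 over all 12792 tested genes, and 34 of 41 lay below that figure. Of the 43 genes, 30 lay above the 90th percentile of level, and the part of brightness in the small spread was not tested. The range over all arrays was under 1 log2 unit for 12 genes and over 2 for Psmd2, Adrm1, Psma1 and Psmd5. Adrm1, Psma1 and Psmd5 were also the 3 tested genes with a mean below 9.

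Markers of the labelled cell type were checked. Of the preadipocyte or fibroblast genes, Dlk1 was at 14.45 or above and Col1a2 at 14.51 or above on all arrays, while Cd34 lay between 6.32 and 7.34. All 8 adipocyte markers were higher at 96 to 288 h than at 0 to 3 h in each arm (limma, adjusted p below 0.05). Of other cell types, Ptprc (4.30 to 5.67), Epcam (4.07 to 5.25) and Tek (4.44 to 5.82) stayed below the filter on dim genes (6.07) on all arrays. These genes do not stand for their whole lists. In untreated cells the summed intensity of the epithelial markers ran from 142 to 189 at 0 to 3 h. At 96 to 288 h it ran from 525 to 2172, and with DMSO and prieurianin from 495 to 2795 and 170 to 3306. Endothelial markers summed to 366 to 642 in untreated cells at 0 to 3 h and to 432 to 962 late. Of the 6 macrophage and leukocyte markers, 4 passed the filter, and Cd14 reached 12.72 and Cd68 11.58. In RNA from a whole dish, fewer cells of a type and less RNA per cell cannot be told apart. Array medians of the deposited intensities lay between 88 and 313, with the untreated 1 h sample at the top.

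Each comparison was fitted with limma across all 12792 genes, with Benjamini-Hochberg adjustment over all of them and a threshold of 0.05. Errors after ± are standard errors of the fit. The times of a window (0.25 to 3, 5 to 15, 24 to 48 and 96 to 288 h) serve as repeats. Between arms, a p-value rests on the scatter left once time is fitted, pooled over all arms and windows. The courses were fitted without time, so theirs rests on the scatter of levels within an arm and window, likewise pooled. Arrays taken close together in time cannot be counted as independent.

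At 5 to 15 h, against 0 to 3 h, 4 of the 6 tested assembly factors rose in untreated cells. There Psmg1, Psmg2, Psmg3 and Psmd9 rose, together with the nuclear activator Psme3 and the lid subunit Psmd7, and the 11S subunit Psme1 fell. No tested gene of the alpha ring, beta ring, ATPase ring or rest of the base passed the test. That made 6 genes higher and 1 lower of 41, where 17.1% of all genes were called in this comparison, so the members' share, also 17.1%, was no higher. The median over the 41 genes was 0.17 against 0.02 over all genes. Leaving out 12 h brought the 7 calls to 4 and leaving out 5 h to 11, and with values as deposited Psmg1 and Psmg3 were the 2 calls left.

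Psmg3, which pairs with a partner chaperone under the forming alpha ring, showed the largest rise. In untreated cells its level ran from 10.03 to 10.55 (median 10.30) over the 6 arrays of 0 to 3 h and was 10.98, 11.37, 10.93 and 10.82 at 5, 9, 12 and 15 h. All 4 later arrays lay above all 6 earlier ones. The rise was 0.71 ± 0.15 (limma adjusted p = 0.0005). Psmg1 went from a range of 12.50 to 13.12 (median 13.03) to 13.20, 13.58, 13.67 and 13.79, again without overlap, a rise of 0.60 ± 0.12 (limma adjusted p = 0.0004). Psmg2, the partner of Psmg1, went from between 11.90 and 12.38 to 12.37, 12.80, 12.81 and 12.65, with the 5 h array just inside the earlier range. Its rise was 0.47 ± 0.12, that of Psmd9, a chaperone of the base, 0.48 ± 0.12 and that of Psme3 0.62 ± 0.19.

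Psme1 moved the other way in every arm. In untreated cells it fell from between 13.80 and 14.14 to 13.66, 13.32, 12.94 and 13.10, by 0.69 ± 0.20, and all 4 arrays lay below the earlier ones. Its second probe fell by 0.60. The fall was 0.64 ± 0.20 with DMSO and 0.75 ± 0.20 with prieurianin (limma adjusted p = 0.02 and 0.006). Psme1 is inducible by interferon, as are the immunoproteasome subunits. Of those 3, Psmb8 and Psmb10 fell by 1.05 and 0.88 in untreated cells in the same window, while Psmb9, at -0.67, did not pass. Psme2, the partner of Psme1 in the 11S activator, did not pass either. In untreated cells it went from between 10.21 and 11.14 to 10.81, 10.48, 10.30 and 10.57. A part of interferon in these movements was not tested.

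With DMSO the 5 to 15 h window held 6 rises and 2 falls (16.9% of all genes called). Psmg3 (0.77 ± 0.15), Psme3 (0.59 ± 0.19), Psmg1 (0.47 ± 0.12) and the deubiquitinase Psmd14 (0.46 ± 0.12) rose most. Psmg2 rose by 0.43 ± 0.12 and the ATPase Psmc5 by 0.27 ± 0.09. Psmd10 (gankyrin), a chaperone of the base, fell by 0.53 ± 0.14 beside Psme1. Without 12 h or without 15 h, 5 of these 8 calls were left. With prieurianin 1 gene rose and 2 fell (16.6% of all genes called): Psmg3 by 0.48 ± 0.15, against falls of Psme1 and of Psmd10 (by 0.39 ± 0.14). Without 12 h 1 call was left. Psmg1 and Psmg2 gave 0.11 and -0.00 in that arm. Psmg3 upward and Psme1 downward were the calls made in all 3 arms. The test between the arms is that of prieurianin against DMSO.

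**Figure D1:**
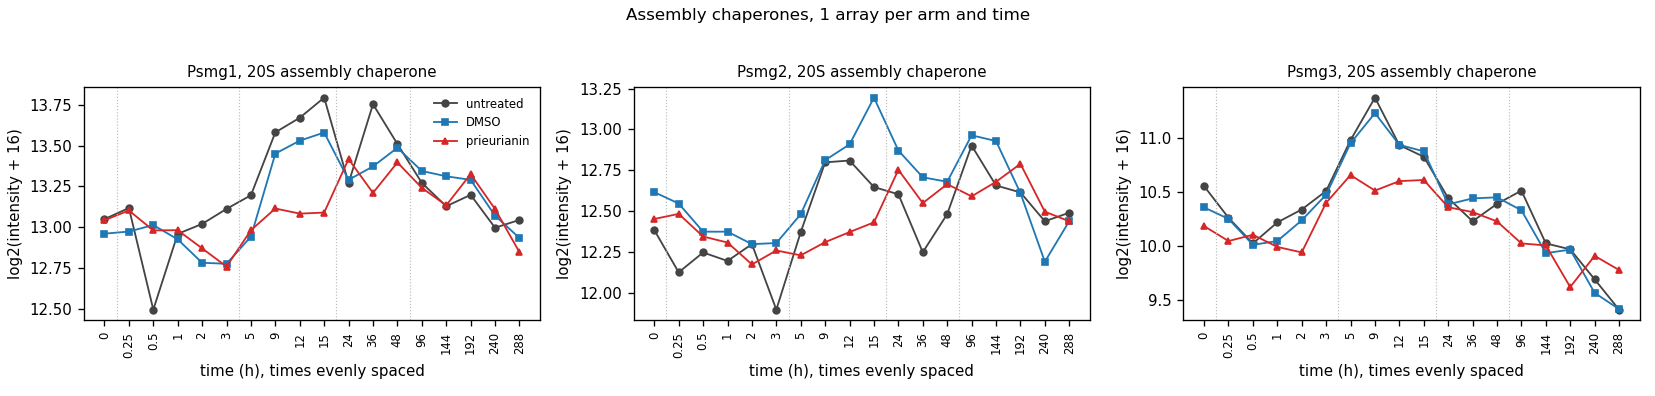
Levels of Psmg1, Psmg2 and Psmg3 on each of the 54 arrays, as log2(intensity + 16) against time in hours (times evenly spaced, dotted lines between windows), with untreated arrays as grey circles, DMSO as blue squares and prieurianin as red triangles. At 9, 12 and 15 h the prieurianin arrays lie below both other arms for each of the 3 genes.

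At 24 to 48 h the calls shrank to Psmg1, higher in untreated (0.55 ± 0.13), DMSO (0.48 ± 0.13) and prieurianin cells (0.39 ± 0.13). That was 1 of 41 genes in each arm, where 12.3%, 17% and 11.4% of all genes were called. The call was lost in all 3 arms under median centring, where the DMSO value was 0.11, and with values as deposited. It was also lost without 36 h in untreated cells and without 48 h with DMSO. With prieurianin (limma adjusted p = 0.048) 14 of 24 alternatives ended it, including leaving out any of 0, 1, 2, 3, 9, 12, 24, 36, 48, 144 or 240 h. Under median centring the DMSO arm had 7 calls here, all lower. Of all 12787 genes tested under that setting, 446 were called higher and 1811 lower.

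By 96 to 288 h the balance had turned, with falls spread over the core and the 19S base. In untreated cells 6 genes fell and 3 rose (36.8% of all genes called). With DMSO 12 fell and 1 rose (35.1%), and with prieurianin 15 fell and 1 rose (33.2%). The members called were 22%, 31.7% and 39% of the 41, no more than the share of all genes in untreated and DMSO cells and somewhat above it with prieurianin. The median over the 41 genes was -0.06, -0.14 and -0.15 in the 3 arms, against 0.01, -0.02 and 0.03 over all genes. Psma7, Psmc3 and Psmc6 were lower in all 3 arms, of 18 genes lower in any.

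The ATPases of the base were the group with most members lower. Of the 5 tested, Psmc3 and Psmc6 fell in untreated cells, Psmc1, Psmc3, Psmc5 and Psmc6 with DMSO, and all 5 with prieurianin. Psmc6 in untreated cells lay between 12.49 and 12.80 (median 12.57) at 0 to 3 h, against 12.24, 12.05, 12.29, 11.77 and 12.35 from 96 to 288 h. The 5 late arrays were all below the 6 early ones, and the fall was 0.46 ± 0.09 (limma adjusted p = 0.0001). With prieurianin Psmc5 went from between 13.89 and 14.05 to 13.57, 13.45, 13.60, 13.69 and 13.50, a fall of 0.40 ± 0.08 (limma adjusted p = 0.0002) with no overlap. Psmc3 fell by 0.48 ± 0.15, 0.48 ± 0.15 and 0.40 ± 0.15 in the untreated, DMSO and prieurianin arms.

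In the core, Psma7 fell in all arms, by 0.32 ± 0.11, 0.41 ± 0.11 and 0.31 ± 0.11. Of the catalytic subunits, Psmb5, the chymotrypsin-like site, fell by 0.30 ± 0.12 with DMSO and by 0.34 ± 0.12 with prieurianin and gave -0.16 in untreated cells. Psmb7, the trypsin-like site, fell by 0.33 ± 0.11 in untreated cells and by 0.28 ± 0.11 with prieurianin. Psmb6, the caspase-like site, passed in no arm (-0.20, -0.11 and -0.12). Psma3 fell by 0.28 ± 0.08 with DMSO and by 0.31 ± 0.08 with prieurianin.

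The non-ATPase part of the base and the lid were divided. Psmd2, a scaffold of the base, fell by 0.64 ± 0.24 in untreated and by 0.68 ± 0.24 in prieurianin cells. Psmd1, its partner scaffold, fell with prieurianin by 0.52 ± 0.16. Psmd14 fell by 0.32 ± 0.11 with DMSO and by 0.36 ± 0.11 with prieurianin. The lid subunit Psmd3 rose by 0.21 in untreated cells. Psmd8, also in the lid, was the single late rise with prieurianin, from between 12.53 and 12.84 (median 12.67) to 13.25, 13.29, 12.57, 13.62 and 13.73. The 192 h array lay within the early range and the other 4 above it, and the rise was 0.62 ± 0.12 (limma adjusted p = 0.0001). At the same late times Psmd8 differed from DMSO by 0.26 ± 0.12, which did not pass (limma adjusted p = 0.12). The ubiquitin receptors Psmd4 and Adrm1 passed in no course window.

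Among the assembly factors, Psmg3 went below its starting level late in untreated (by 0.39 ± 0.14) and DMSO cells (by 0.39 ± 0.14), and Psmd10 fell by 0.54 ± 0.13 with DMSO and by 0.39 ± 0.13 with prieurianin. Psmg2 was 0.43 ± 0.12 higher late in untreated cells, though not called at 24 to 48 h, and Psmg1 0.28 ± 0.11 higher with DMSO, a call lost in 15 of 24 alternatives. Of the activators, Psme1 fell late with prieurianin (0.69 ± 0.19) and Psme4, the large nuclear activator PA200, was at 0.32 ± 0.13 in untreated cells, just past the threshold (limma adjusted p = 0.0496). That call was lost in 18 of 24 alternatives, and the mean of all probes of Psme4 gave 0.03. Psme2 and the inhibitor Psmf1 passed in no course window. Late counts depended on single times: untreated calls were 5 of 9 without 3 h or without 144 h, DMSO calls 7 of 13 without 0.25 h and 8 without 144 h, and prieurianin calls 10 of 16 without 0 h or without 96 h. With median centring the late calls were 0 higher and 2 lower, 0 and 1, and 1 and 6 in the 3 arms. Of all 12787 genes, 1826 were higher and 1911 lower, 1906 and 1598, and 1421 and 1756 there. With values as deposited the late member calls were 0 and 9, 0 and 12, and 1 and 18. All genes were mostly lower there too, with 1131 higher and 2790 lower, 1187 and 2284, and 827 and 2519.

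**Figure D2:**
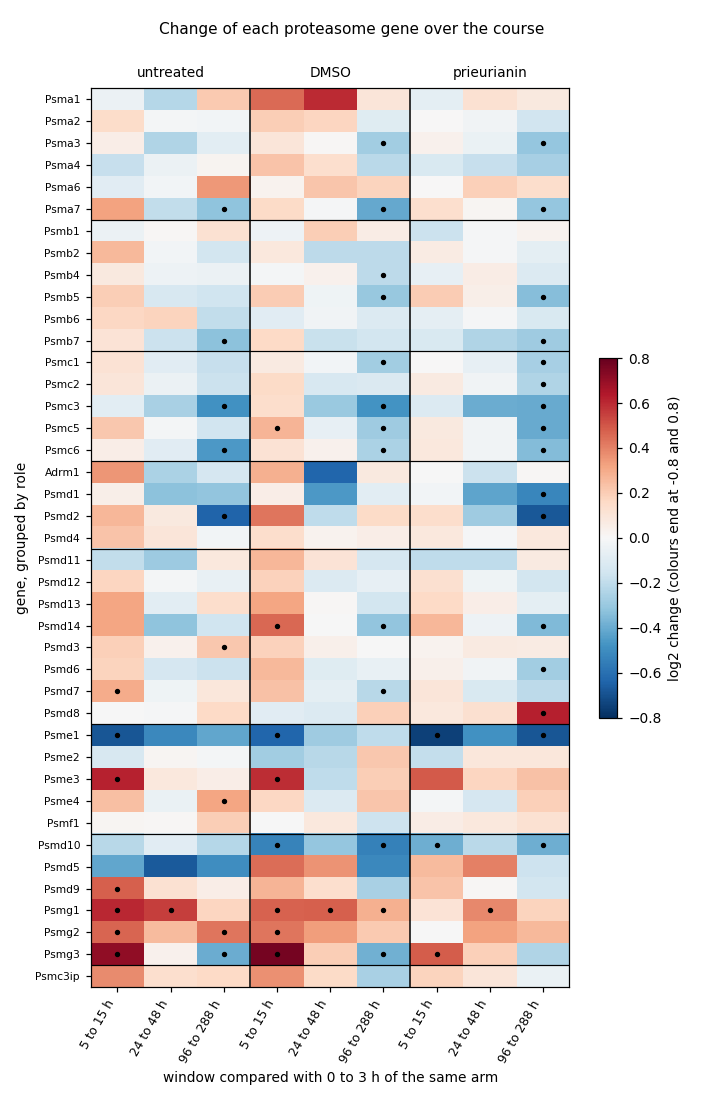
Log2 change of each of the 41 tested genes (rows, grouped by role) at 5 to 15, 24 to 48 and 96 to 288 h against 0 to 3 h of the same arm (columns), red for higher and blue for lower, with a black dot where limma's adjusted p was below 0.05. Of the 18 dots at 5 to 15 h, 10 are on assembly factors and 5 on activators. The 38 dots at 96 to 288 h are spread over all roles, 11 of them on ATPases and 10 on core subunits.

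Genes of cell division, which are not proteasome genes, moved in these windows too: of 9 tested, 2 were higher at 5 to 15 h in untreated and in DMSO cells and none with prieurianin, and late 8, 8 and 6 were lower. Their part in the movement of the proteasome genes was not tested. Of other proteasome factors, Pomp, the maturation factor of the core, rose at 5 to 15 h by 0.32 in untreated and by 0.34 in DMSO cells. Of 9 such factors tested, 2 and 3 were called higher there, the others being Ube3c in both and Uchl5 with DMSO.

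DMSO and untreated cells differed in 4, 8, 10 and 1 of the 41 tested genes in the 4 windows. In the first 3 windows that was a larger share than that of all genes called, and late a smaller one. The shares were not tested against each other. Psmd2, Adrm1, Psme2 and the core subunit Psmb2 were lower with DMSO, and Psma1, Psmd5 and Psma6 were higher. Calls were 3 higher and 1 lower at 0.25 to 3 h (3.64% of all genes called), 4 higher and 4 lower at 5 to 15 h (7.69%), 5 higher and 5 lower at 24 to 48 h (9.42%), and 1 higher with 0 lower at 96 to 288 h (3.74%). The median over the 41 genes was 0.01, 0.02, 0.05 and -0.10, against -0.02, -0.03, -0.04 and -0.02 over all genes.

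Psmd2 showed the difference from the first window. At 0.25, 0.5, 1, 2 and 3 h it was 9.51, 10.06, 10.14, 10.12 and 10.17 with DMSO and 10.68, 10.12, 10.55, 10.89 and 11.39 in untreated cells. DMSO was lower at 5 of 5 times, and the ranges overlapped slightly. The difference was -0.73 ± 0.17 (limma adjusted p = 0.014), then -0.77 ± 0.19 at 5 to 15 h and -1.21 ± 0.22 at 24 to 48 h (limma adjusted p = 0.0009). At 24, 36 and 48 h the values were 9.87, 9.41 and 9.41 with DMSO and 11.21, 10.76 and 10.34 untreated, without overlap. Late it was -0.13 ± 0.17 and did not pass. The ubiquitin receptor Adrm1 was lower by 0.73 ± 0.18 at 5 to 15 h and by 1.04 ± 0.21 at 24 to 48 h (6.87, 7.23 and 7.10 against 8.56, 7.94 and 7.82).

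Psmd5, a chaperone of the base, had the largest difference upward. Its DMSO values at 5, 9, 12 and 15 h were 8.18, 8.24, 8.16 and 8.76, and the untreated values 6.14, 7.09, 7.10 and 6.45. The groups were apart at each time, by 1.64 ± 0.26 on average (limma adjusted p = 0.0002). The difference was 1.07 ± 0.24 before that and 1.80 ± 0.31 at 24 to 48 h (limma adjusted p = 0.0004). Psma1, an alpha subunit, was higher by 1.01 ± 0.28, 1.34 ± 0.32 and 1.67 ± 0.37 in the same 3 windows, and Psma6 by 0.46 ± 0.12, 0.53 ± 0.13 and 0.66 ± 0.15. At 5 to 15 h the lid subunit Psmd11 was higher by 0.51 ± 0.15. At 24 to 48 h Psmd14 was higher by 0.56 ± 0.15 and Psma3 by 0.42 ± 0.10, and Psme2 (-0.63 ± 0.15), Psme3 (-0.54 ± 0.17) and Psmb2 (-0.37 ± 0.11) were lower. Late, Psmc6 was the single call, higher by 0.32 ± 0.09.

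The 0 h arrays, which these fits do not use, differed between arms too. Psmd2 was 8.61 with DMSO, 10.05 with prieurianin and 10.54 untreated, and Adrm1 6.65, 7.62 and 8.38, so both were lower than untreated at 0 h as well. Psmd5 went against its later difference, at 8.13 and 7.25 against 8.82 untreated, and Psma1 was 8.42 with DMSO and 8.45 untreated, with the prieurianin array lower than both. Psmd5 in untreated cells lay between 5.89 and 7.36 at all later times, below its own 0 h array. Psma1, Psmd5 and Adrm1 are the 3 dim members. Dimmer second probes of bright genes gave larger differences too: that of Psma3 (mean 6.33) was higher by 1.01, 0.97 and 1.19 in the first 3 windows and that of Psmc6 (mean 10.30) by 0.74, 1.29, 1.21 and 0.74 in all 4, where the bright probe of Psmc6 gave 0.16, 0.18, 0.24 and 0.32. The part of probe brightness in these differences was not tested.

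**Figure D3:**
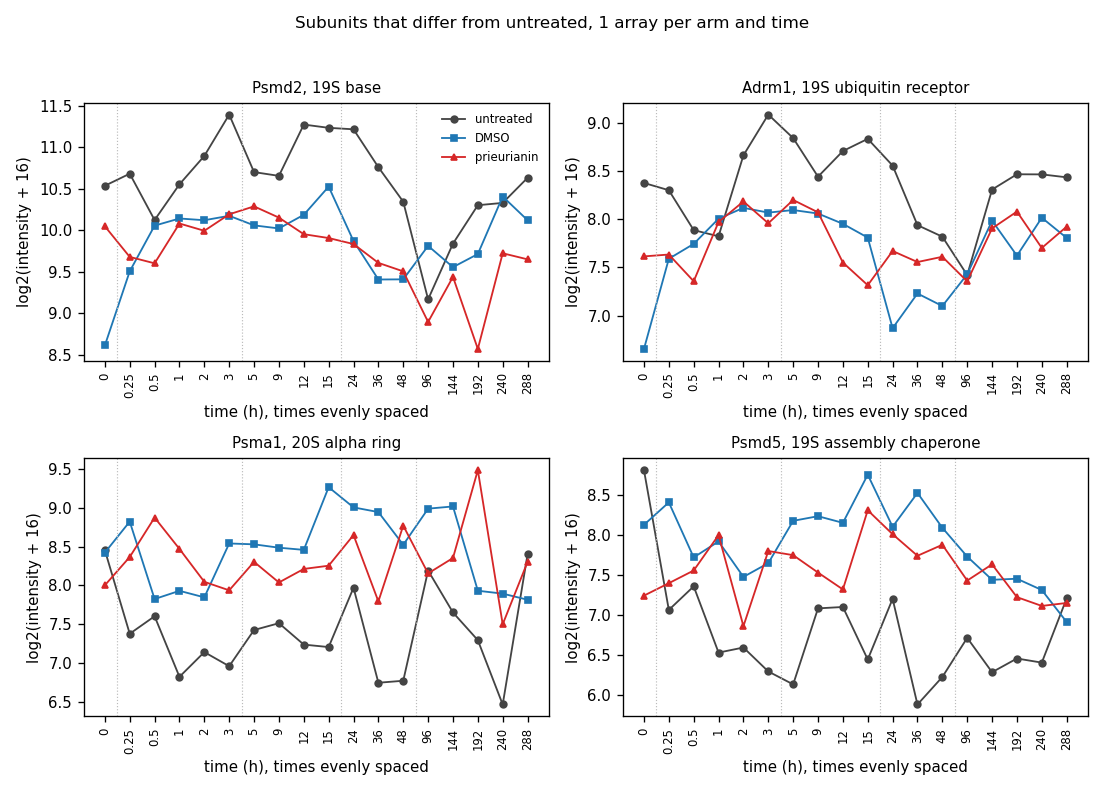
Levels of Psmd2, Adrm1, Psma1 and Psmd5 on each array, as log2(intensity + 16) against time in hours (times evenly spaced, dotted lines between windows), with the 3 arms marked as grey circles (untreated), blue squares (DMSO) and red triangles (prieurianin). From 2 to 48 h both treated arms lie below untreated for Psmd2 and Adrm1 and above it for Psma1 and Psmd5, while at 0 h Psmd5 is highest in untreated cells.

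The vehicle counts moved with single times. At 0.25 to 3 h the 4 calls were 0 without 0.25 h or without 3 h and 1 without 1 h or without 2 h. At 5 to 15 h the 8 calls were 3 without 12 h and 1 without 15 h, and at 24 to 48 h the 10 calls were 3 without 36 h. Late, the 1 call was 0 without 96, 144 or 240 h, 2 without 48 h and 5 without 288 h. The change of the DMSO difference from 24 to 48 h to 96 to 288 h was called for 0 of 41 genes by limma (0% of all genes; 11 of 41 at an unadjusted p under 0.05), so a call in one window and none in the other is not shown to be a change. Median centring in place of quantile normalisation turned the 5 higher and 5 lower genes at 24 to 48 h into 2 and 8. Of all 12787 genes, 197 were called higher and 1152 lower there. Median centring also turned Psma3 to -0.09. With values as deposited the 4 higher and 4 lower genes at 5 to 15 h became 2 and 7 (all genes 275 and 489). The 3 higher and 1 lower gene at 0.25 to 3 h became 0 and 2 (all genes 76 and 22).

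Against DMSO, the prieurianin arm had lower levels of the core chaperones Psmg2 and Psmg3 at 5 to 15 h. Late, Psme1, Psmd2, Psmd1 and Psmc2 were lower, and no proteasome gene passed as higher in any window. At 0.25 to 3 h 0 of 41 genes were called by limma, as were 0% of all genes, with 0 members and 324 genes of all at an unadjusted p under 0.05. At 5 to 15 h it was 0 higher and 2 lower (12.6% of all genes called), at 24 to 48 h 0 (1.2% of all; 3 members at an unadjusted p under 0.05), and at 96 to 288 h 0 higher and 4 lower (17.2%). The members' shares, 4.88% and 9.76% in the windows with calls, were below those of all genes.

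In the 5 to 15 h window Psmg2 was 12.23, 12.31, 12.37 and 12.43 with prieurianin and 12.48, 12.81, 12.91 and 13.19 with DMSO. Prieurianin was lower at each time and the groups did not overlap. The differences were -0.25, -0.50, -0.54 and -0.76 at 5, 9, 12 and 15 h, and the difference was -0.51 ± 0.10 (limma adjusted p = 0.0009). Psmg3 was 10.66, 10.51, 10.60 and 10.61 against 10.95, 11.23, 10.93 and 10.87, also without overlap, a difference of -0.40 ± 0.11 (limma adjusted p = 0.015). For Psmg1 the arrays were 12.98, 13.11, 13.08 and 13.09 against 12.94, 13.45, 13.53 and 13.58, lower at 3 of 4 times. Its difference of -0.31 ± 0.11 did not pass (limma adjusted p = 0.065). Without 9 h or without 12 h, 1 of the 2 calls was left, while Psmg2 passed without any single time. With median centring in place of quantile normalisation neither passed.

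Around these calls, most other proteasome genes lay slightly below zero. Of 41 differences 35 were negative, with a median of -0.14 against -0.02 over all genes, and 9 had an unadjusted p under 0.05. Medians by role were -0.15 for the alpha ring, -0.04 for the beta ring, -0.20 for the ATPases, -0.15 for the rest of the base, -0.16 for the lid and -0.11 for activators and inhibitor and -0.36 for the assembly factors. The chymotrypsin-like subunit Psmb5 (0.05 ± 0.13), the caspase-like Psmb6 (-0.02 ± 0.10) and the trypsin-like Psmb7 (-0.20 ± 0.10) did not pass. Psmd11, in the lid, gave -0.35 ± 0.15 (limma adjusted p = 0.12) and Psmd5 -0.60 ± 0.26 (limma adjusted p = 0.14).

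Of 8 tested genes in a list of proteasome transcription, 1 was called in the same window, Nfe2l1, where 12.6% of all genes were called. It was higher with prieurianin at 4 of 4 times, from 12.66 to 13.74 (median 13.53) against 12.06 to 12.69 (median 12.47), by 0.95 ± 0.12 (limma adjusted p = 2.6e-06). The 6 genes with an antioxidant response core in the promoter gave 0.05 (Psmb5), -0.02 (Psmb6), -0.04 (Psmd9), -0.04 (Psmc6), -0.08 (Psmd12) and -0.20 (Adrm1), and none passed. As only 2 of the 41 tested genes passed in this window, few or no calls are likely among any 6 of them. A part of Nfe2l1 in these genes was not tested. Pomp was lower by 0.29 ± 0.08 (limma adjusted p = 0.021), from 14.19 to 14.33 against 14.50 to 14.58, without overlap. Of the 9 proteasome-bound factors tested, Pomp and Zfand2a, a stress-induced partner of the 19S cap (0.47 higher), were the 2 called. Of 9 ubiquitin shuttles and p97 adaptors, the autophagy and ubiquitin receptor Sqstm1 was higher by 0.66 and Ubqln4 lower by 0.49. Of 17 ubiquitin-activating and E2 genes, Ube2g1 (0.50) and Ube2h (0.44) were higher, which is 11.8% of that list. Cell division genes were lower too, 5 of 9 called and a median of -0.81, and their part in the chaperone differences was not tested.

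**Figure D4:**
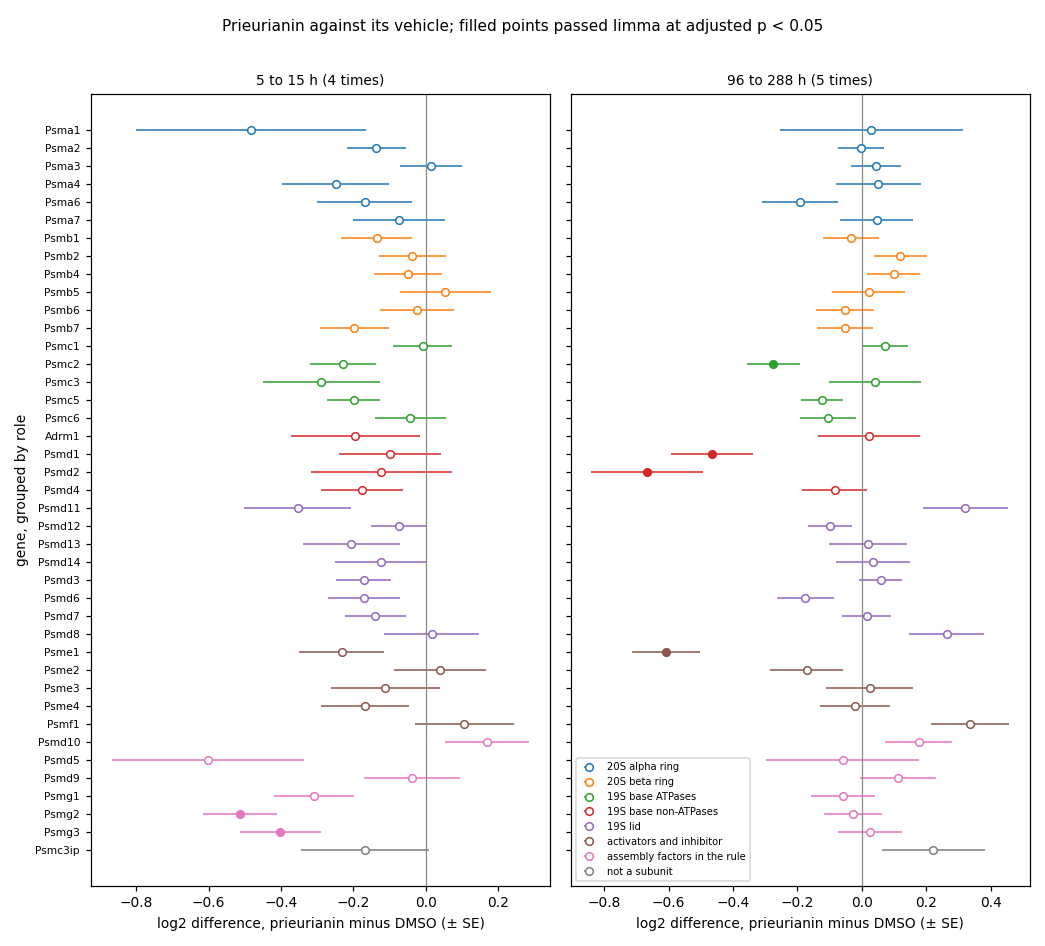
Log2 difference of prieurianin minus DMSO for each tested gene at 5 to 15 h (left) and 96 to 288 h (right), with standard errors of the fit as bars, genes grouped and coloured by role, and filled points where limma's adjusted p was below 0.05. Filled points are Psmg2 and Psmg3 on the left and Psmc2, Psmd1, Psmd2 and Psme1 on the right, all below 0.

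In the last window Psme1 had the clearest difference. At 96, 144, 192, 240 and 288 h it was 12.91, 12.36, 13.18, 13.35 and 13.23 with prieurianin and 13.26, 12.83, 14.16, 13.94 and 13.89 with DMSO. Prieurianin was lower at 5 of 5 times although the ranges overlap, and the difference was -0.61 ± 0.10 (limma adjusted p = 0.0002). The second probe of Psme1 gave -0.56 (limma adjusted p = 0.0005). Psme2, its partner in the 11S ring, gave -0.17 and did not pass. Of the 3 immunoproteasome subunits in the same window, Psmb10 was lower by 0.96 and Psmb9 by 0.88, and Psmb8, at -0.67, did not pass.

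The 3 other late calls lie in the 19S base. Psmd2 was 8.90, 9.44, 8.57, 9.72 and 9.65 against 9.81, 9.56, 9.71, 10.41 and 10.12, lower at 5 of 5 times by 0.67 ± 0.17 (limma adjusted p = 0.0084). Psmd1 was lower at 4 of 5 times by 0.46 ± 0.13 (limma adjusted p = 0.012), the 192 h array being 0.08 higher. The ATPase Psmc2 was lower at 5 of 5 times by 0.27 ± 0.08 (limma adjusted p = 0.019). Over the whole course Psmc2 was below DMSO at 16 of 17 times after 0 h, by 0.19 on average (SD 0.11), and the 0 h arrays differed by -0.14. Psmd2 at 0 h went the other way, 1.43 higher with prieurianin.

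Over all 41 genes, the 4 calls included, the late differences were mixed: 22 were positive and 19 negative, with a median of 0.02 and the same median over all genes. Psmf1, the inhibitor PI31, gave 0.34 ± 0.12 (limma adjusted p = 0.056), Psmd11 0.32 ± 0.13 (limma adjusted p = 0.093) and Psmb5 0.02. Late counts were 9 without 192 h and 2 without 240 h or without 288 h. With median centring Psme1 was the 1 call left, and with no time term 0 passed. The change of the difference from 24 to 48 h to 96 to 288 h was called for 0 of 41 genes by limma (0.0782% of all genes; 4 of 41 at an unadjusted p under 0.05), and 1 without 192 h. Of the 9 other proteasome-bound factors, Txnl1, a thioredoxin-like protein of the 19S cap, was lower by 0.79 and the deubiquitinase Usp14 higher by 0.29. Of the 17 ubiquitin-activating and E2 genes 3 were higher and 2 lower, with Uba6, an activating enzyme, the highest at 0.96. Adipocyte markers were lower in this window, 7 of 8 called with a median of -1.62, but their summed intensity was not lower on every array. It ran from 54418 to 281074 with prieurianin and from 166598 to 259683 with DMSO. Some members stood apart on the 192 h prieurianin array. Psma1 was 9.49 there, against 8.16, 8.35, 7.50 and 8.30 at the other late times, and Psmd8 12.57 against 13.25, 13.29, 13.62 and 13.73. Psmb6, at 14.92, lay within its other late values. The part of the adipocyte markers in the proteasome differences was not tested.

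**Figure D5:**
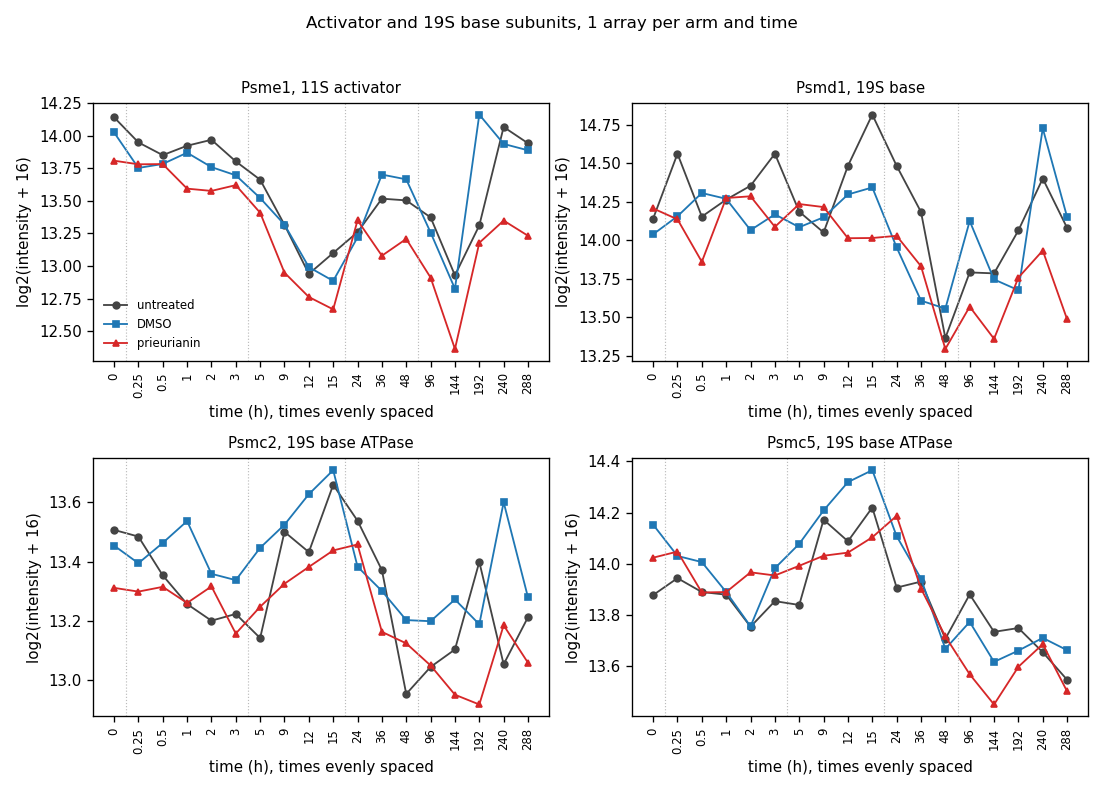
Levels of Psme1, Psmd1, Psmc2 and Psmc5 on each array, as log2(intensity + 16) against time in hours (times evenly spaced, dotted lines between windows), with untreated arrays as grey circles, DMSO as blue squares and prieurianin as red triangles. At 96 to 288 h Psme1 and Psmc2 are lower with prieurianin than with DMSO at each of the 5 times, and Psmd1 at 4.

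Prieurianin against untreated cells uses the same untreated arrays as the vehicle comparison and the same prieurianin arrays as the comparison with DMSO, so its values are given beside theirs and are no separate evidence. Calls were 2 higher and 3 lower at 0.25 to 3 h (6.28% of all genes called), 4 higher and 12 lower at 5 to 15 h (24.7%), 5 higher and 1 lower at 24 to 48 h (8.1%), and 1 higher with 5 lower at 96 to 288 h (22.4%). Psmd2 was lower in every window, by 0.82 ± 0.17, 0.89 ± 0.19, 1.12 ± 0.22 and 0.80 ± 0.17, beside 0.73, 0.77, 1.21 and 0.13 for DMSO. Adrm1 was lower by 0.93 ± 0.18 at 5 to 15 h (DMSO 0.73). Psmd5 was higher by 1.04 ± 0.26 at 5 to 15 h and 1.44 ± 0.31 at 24 to 48 h (DMSO 1.64 and 1.80), and Psma1 by 1.16 ± 0.28, 0.86 ± 0.32 and 1.24 ± 0.37 in the first 3 windows.

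The 5 to 15 h window held most calls against untreated cells. The beta ring had 4 of 6 genes lower: Psmb7 by 0.43 ± 0.10, Psmb2 by 0.39 ± 0.09, Psmb6 by 0.34 ± 0.10 and Psmb1 by 0.31 ± 0.10, where DMSO minus untreated gave -0.23, -0.35, -0.31 and -0.18. All 3 core chaperones were lower, Psmg1 by 0.49 ± 0.11, Psmg3 by 0.43 ± 0.11 and Psmg2 by 0.32 ± 0.10, beside -0.18, -0.03 and 0.19 for DMSO. Psma7 (-0.41 ± 0.13), Psme2 (-0.50 ± 0.13) and Psme4 (-0.37 ± 0.12) were lower as well. Psmb7 was 14.13 on average with prieurianin and 14.56 untreated.

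Late, Psme1 was lower than untreated by 0.52 ± 0.10, Psmd1 by 0.40 ± 0.13, Psme2 by 0.33 ± 0.11 and Psmb1 by 0.28 ± 0.09, and Psmd5 higher by 0.70 ± 0.24. At 24 to 48 h Psmd14 (0.60 ± 0.15), Psma6 (0.48 ± 0.15) and Psma3 (0.43 ± 0.10) were higher beside Psmd5 and Psma1. Single times again moved the counts: 5 calls at 0.25 to 3 h were 2 without 0.25 h or without 2 h, 3 without 12 h and 0 without 3 h. The 16 calls at 5 to 15 h were 8 without 12 h and 9 without 15 h, the 6 at 24 to 48 h were 1 without 36 h and 3 without 48 h, and the 6 late calls were 2 without 144 h and 3 without 240 h. With values as deposited, higher and lower calls were 0 and 3, 1 and 17, 1 and 1, and 0 and 9 in the 4 windows. Over all genes they were 160 and 147, 644 and 2414, 401 and 104, and 603 and 2228. With median centring member calls were 1 and 0, 1 and 6, 1 and 1, and 1 and 1. Over all genes they were 203 and 12, 630 and 1129, 201 and 45, and 674 and 699.

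Psmc3ip, the gene that shares only its symbol pattern, passed in no comparison, with differences between -0.44 and 0.38. For 4 of the 5 genes with several probes, a second probe could be tested. Those of Psme1 had the same sign and a similar size, and the second probe of Psmd9 (mean 7.64) rose by 0.53 in untreated cells at 5 to 15 h beside 0.48 for the first. The probes of Psmc6 and Psma3 differed as given above, so the vehicle difference of these 2 genes depends on the probe.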

How the data were processed

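RNA of the 54 samples was hybridised to single-colour Mouse OneArray chips, labelled with Cy5, per the labels' protocols. The deposited values are spot intensities on a linear scale, 1 table per array; background handling and scaling by the authors are not given in the sources used here, and array number limits the precision.

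Intensities were quantile normalised between arrays, floored at 0 and taken as log2(value + 16). A gene was represented by its probe with the highest mean, named through the platform annotation, and kept when its mean passed 6.07, the lower quartile of named probes, which left 12792 of 16637 genes. Limma 3.58.1 in R 4.3.3 (Python 3.11.15, pandas 2.3.3) fitted the 51 arrays after 0 h with time as a factor and arm within 4 windows, and the courses from all 54 arrays by arm and window. Time thus pairs the arms, as the design has 1 array of each arm at each time. The fits were also run on simulated data with independent noise on every array. Neighbouring times of the real arrays are not independent, so that run cannot show how often calls here are false. Named genes are up to 4 called members with the largest difference in each direction per comparison, of 1 sign at every time. A fixed set was also followed: the catalytic subunits, Psma7, Psmc2, Psmc4, Psmd4, Adrm1, Psmd14, Psmd11, Psme1 to Psme4, Psmf1, Psmg1 and Psmg2. Psmc4 could not be tested, and values of the others are not printed in every comparison. Called genes of the related lists are named as well. Other members named to complete a role were chosen after their values were seen. Members and lists were chosen with earlier results of these data known. The labels do not say whether samples of different times are separate cultures, so the spread may be technical. Alternatives were median centring, values as deposited, no time term, a random block, a pseudocount of 64, no filter, all probes, fewer arms, 3 windows and leaving out each time.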

Additional observations from a re-analysis of the deposited data

Results flagged for a closer look

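The DMSO difference of Psmd11, a lid subunit, had opposite signs in the last 2 windows. DMSO minus untreated was 0.45 on average at 24 to 48 h and -0.17 at 96 to 288 h, every time of each window having the sign of its mean (the smallest difference at 24 to 48 h being 0.0011), a change of -0.62. The test of that change did not pass (limma adjusted p = 0.25).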

How the results depend on the processing

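Over all comparisons 121 member calls were made, and 21 held under every alternative, leaving out each time included; 79 were lost under median centring, 45 with values as deposited, and 1 reversed, that of Psma3 in DMSO minus untreated at 24 to 48 h, which was -0.092 under median centring. The cause was not tested. In that comparison the median of all genes was -0.32 under median centring, against -0.04 with quantile normalisation. A pseudocount of 64 left all counts within 1.5 times. Counts below follow the windows in time order where several are given. They stand without the share of all genes called under the same alternative.

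Under median centring, DMSO minus untreated gave 1, 3 and 0 calls at 0.25 to 3, 5 to 15 and 96 to 288 h, prieurianin minus DMSO 0 and 1 at 5 to 15 and 96 to 288 h, prieurianin minus untreated 1, 7, 2 and 2, the DMSO course 2, 7 and 1, the untreated course 0 and 2 at its last 2 windows and the prieurianin course 0 and 7. As deposited, DMSO minus untreated gave 2, 4 and 0 at 0.25 to 3, 24 to 48 and 96 to 288 h, prieurianin minus DMSO 1 and 2 at 5 to 15 and 96 to 288 h, prieurianin minus untreated 3 and 2 at 0.25 to 3 and 24 to 48 h, the untreated and DMSO courses 2 and 0 at their first 2 windows and the prieurianin course 1 and 0. With no replicate block (no time term), which loses the pairing of arms by time, 31 of 62 arm calls were lost: DMSO minus untreated gave 1, 3 and 0 at 0.25 to 3, 5 to 15 and 96 to 288 h, prieurianin minus DMSO 1 and 0 at 5 to 15 and 96 to 288 h, and prieurianin minus untreated 2, 10 and 3 at 0.25 to 3, 5 to 15 and 96 to 288 h.

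Fitting only the arms compared gave 2 for DMSO minus untreated late, 4 for prieurianin minus DMSO at 5 to 15 h, 2, 10, 3 and 3 for prieurianin minus untreated and 4 for the late untreated course. With 5 to 48 h as 1 window, DMSO minus untreated gave 15, prieurianin minus DMSO 3 and prieurianin minus untreated 18. A random block gave 3 for DMSO minus untreated late. No filter gave 0 for the prieurianin course at 24 to 48 h and 3 for prieurianin minus untreated at 0.25 to 3 h, and the mean of all probes 2 for the untreated course at 24 to 48 h.

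Leaving out each time gave 0 to 5, 1 to 11, 3 to 10 and 0 to 5 calls for DMSO minus untreated, 0 to 0, 1 to 3, 0 to 0 and 2 to 9 for prieurianin minus DMSO and 0 to 6, 8 to 18, 1 to 7 and 2 to 8 for prieurianin minus untreated. The changes of the difference gave 0 to 0 (DMSO minus untreated) and 0 to 1 (prieurianin minus DMSO). The untreated course gave 4 to 11, 0 to 2 and 5 to 11, the DMSO course 5 to 9, 0 to 2 and 7 to 13, and the prieurianin course 1 to 4, 0 to 1 and 10 to 18. With 1 array per arm and time there is no replicate at any time, and dim probes (Adrm1, Psma1, Psmd5) are the least precise.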
